A study of Mus musculus with 16 samples.

Results

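The troponin isoform genes are the 7 genes that encode the troponins of striated muscle other than cardiac troponin I. They were chosen by symbol, as *Tnnt1*, *Tnnt2*, *Tnnt3*, *Tnni1*, *Tnni2*, *Tnnc1* and *Tnnc2*, and each symbol matched 1 of the 55471 gene rows of the deposited count table. All 7 passed the filter on low counts that left 14331 genes for testing. The samples are skeletal muscle of 16 male mice on an HFD, a high fat diet with 60% of its kcal from lipids, fed for 12 weeks from 12 weeks of age. Of these mice, 10 are labelled heterozygous (*Npr1*+/-) and 6 wildtype (*Npr1*+/+). The line, B6.129-Npr1tm1Gar/J, had been backcrossed to C57BL/6J for 10 or more generations, the wildtype mice were littermates, and the mutant allele is germline rather than limited to muscle. The labels spread the mice over 4 cages and name no individual muscle. Each library is the sample of 1 mouse.

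Troponin is the calcium switch of the thin filament. Troponin C (TnC) binds calcium, troponin I (TnI) holds back the interaction of actin with myosin at rest, and troponin T (TnT) ties the complex to tropomyosin. Fast fibres use the products of *Tnnt3*, *Tnni2* and *Tnnc2*, whereas slow fibres use those of *Tnnt1*, *Tnni1* and *Tnnc1*. The heart shares *Tnnc1* with slow muscle and has its own TnT gene, *Tnnt2*, which developing skeletal muscle also transcribes, and its own TnI gene, *Tnni3*.

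Several properties of these libraries bear on every comparison by label. The targeted gene *Npr1*, which encodes the natriuretic peptide receptor GCA, was not lower under the heterozygous label. Its level was 13.6 ± 3.87 CPM (CPM, the count after TMM scaling of the libraries to a shared size, SD, n = 10) against 12.2 ± 1.05 (SD, n = 6) in the libraries labelled wildtype, with a log2 fold change of 0.09 (edgeR's quasi-likelihood test, unadjusted p = 0.657). A ribosomal protein gene copy, *Rps3a3*, separated the labels except for a single library: it was at 22.8 to 61.5 CPM in the libraries labelled heterozygous, at 30.4 CPM in wildtype replicate 3 and at 0.111 to 0.704 CPM in the other 5 libraries labelled wildtype. *Rps3a3* was picked after its values were seen, and as a near copy of another gene its counts are uncertain. Results are therefore given for the labels, and the values without wildtype replicate 3 are given beside the label, cage and body weight results and the correlations among troponin and myosin genes. Totals ran from 15273472 to 59682677 counts, the highest in heterozygous replicate 5. Heterozygous replicates 6 and 7 stood apart on *Myh4*, the myosin heavy chain of type IIb fibres, at 52542 and 58769 CPM where the median of all 16 was 11571. The muscle markers *Acta1* (16949 to 43709 CPM) and *Ckm* (17779 to 36076 CPM) were high in all 16 libraries. Of the 8 heart markers, *Nppb* and *Myl7* had 0 counts in all 16 libraries and *Mybpc3* in 14, *Nppa* and *Ryr2* had 0 in 6 libraries each, and *Gja5* (2.59 to 5.78 CPM), *Myh6* (0.119 to 7.10 CPM) and *Tnni3* (0.119 to 0.696 CPM) were detected in all 16.

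The 7 genes lie on 4 chromosomes of GRCm38 (coordinates as deposited). *Tnni2* (chr7:142441808-142444410) and *Tnnt3* (chr7:142498836-142516008), the fast TnI and TnT genes, lie 54425 bases apart with *Lsp1* between them, both on the plus strand. *Tnni1* (chr1:135779434-135810989) and *Tnnt2* (chr1:135836354-135852260), also on the plus strand, lie 25364 bases apart with *Lad1* between them. *Tnnt1* (chr7:4504570-4516382, minus strand) is 1922 bases from *Tnni3*. *Tnnc1* (chr14:31208312-31211636, plus strand) lies wholly within the span of *Nisch* but shares no exon base with it. *Tnnc2* (chr2:164777161-164779967, minus strand) shares 592 of its 800 exon bases with exons of *Ube2c* on the opposite strand, and the sources used here do not say whether reads were counted by strand. Counts from shared bases may therefore have been lost or added, and the level of *Tnnc2* is uncertain.

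The promoters shown here are those of the 3 slow genes, so that the genes of 1 fibre type can be read side by side, with *Tnnt2*, from the same stretch of chromosome 1 as *Tnni1*, and *Tnnc2* of the fast set. RefSeq (GRCm38.p6) held promoter windows, from 250 bases before the transcript start to 50 after it, for 5 of the 7 genes, and *Tnni2* and *Tnnt3* were not among them. Capitals mark the letters that matched a searched motif on either strand, and no matches overlapped in these windows. The motifs were the E-box of the MyoD family (CANNTG), the MCAT element bound by TEAD factors (CATTCC), the core of the MEF2 element (TATTTTTA) and the TATA box (TATAAA). Where RefSeq gives a pair of starts, the upstream window is printed.
Tnnt1 (chr7:4515926-4516225, minus strand): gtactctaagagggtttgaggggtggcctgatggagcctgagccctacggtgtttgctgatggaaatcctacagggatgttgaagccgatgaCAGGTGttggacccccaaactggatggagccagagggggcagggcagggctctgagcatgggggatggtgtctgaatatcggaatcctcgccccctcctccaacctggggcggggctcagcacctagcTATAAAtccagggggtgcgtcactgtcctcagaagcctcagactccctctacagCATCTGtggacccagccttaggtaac
Tnni1 (chr1:135799171-135799470, plus strand): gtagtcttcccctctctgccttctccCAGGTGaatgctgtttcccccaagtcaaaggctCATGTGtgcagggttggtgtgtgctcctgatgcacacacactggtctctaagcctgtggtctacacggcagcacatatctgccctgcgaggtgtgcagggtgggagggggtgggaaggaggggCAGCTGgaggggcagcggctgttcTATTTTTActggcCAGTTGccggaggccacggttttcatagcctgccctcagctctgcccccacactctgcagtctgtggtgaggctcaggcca
Tnnc1 (chr14:31208062-31208361, plus strand): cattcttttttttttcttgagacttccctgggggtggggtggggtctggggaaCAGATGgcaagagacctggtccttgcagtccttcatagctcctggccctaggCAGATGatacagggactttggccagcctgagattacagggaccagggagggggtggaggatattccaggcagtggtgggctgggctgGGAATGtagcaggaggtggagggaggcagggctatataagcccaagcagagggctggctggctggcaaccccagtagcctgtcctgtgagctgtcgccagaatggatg
Tnnt2 (chr1:135836084-135836383, plus strand): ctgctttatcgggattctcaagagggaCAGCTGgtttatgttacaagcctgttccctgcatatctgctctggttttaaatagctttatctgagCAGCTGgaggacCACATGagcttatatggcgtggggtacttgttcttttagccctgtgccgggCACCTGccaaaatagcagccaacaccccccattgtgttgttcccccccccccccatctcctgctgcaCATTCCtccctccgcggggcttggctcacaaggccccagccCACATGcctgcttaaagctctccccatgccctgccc
Tnnc2 (chr2:164779685-164779984, minus strand): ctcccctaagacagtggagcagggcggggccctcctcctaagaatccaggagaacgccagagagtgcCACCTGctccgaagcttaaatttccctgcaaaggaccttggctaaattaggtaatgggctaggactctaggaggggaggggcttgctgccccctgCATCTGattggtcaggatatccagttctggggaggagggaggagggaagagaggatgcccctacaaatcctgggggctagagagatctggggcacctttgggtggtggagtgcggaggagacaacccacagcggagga
An E-box was present in each of the 5 windows, 5 times in that of *Tnnt2*, 4 times in that of *Tnni1* and 2 times in each of the others, and in 72.3% of all 32851 windows of this length. The MEF2 core was found in that of *Tnni1*, and in 2.72% of all windows. The MCAT element was found in those of *Tnnc1*, as its reverse complement, and *Tnnt2* (14.7% of all windows), and the TATA box in that of *Tnnt1* (13.6% of all windows). No motif other than the E-box was shared by the 3 slow genes in these windows. A match describes the letters alone.

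The fast genes made up nearly all troponin mRNA in this muscle. Per kilobase of exon, *Tnnt3* was at 9855 ± 2796 CPM per kb and *Tnni2* at 7491 ± 1423 CPM per kb (SD, n = 16 mice, as for the levels that follow). *Tnnc2* was at 488 ± 101 CPM per kb. The slow genes were far lower, with *Tnnc1* at 4.36 ± 2.34, *Tnnt1* at 3.44 ± 1.30 and *Tnni1* at 1.81 ± 0.793 CPM per kb, and the cardiac TnT gene *Tnnt2* was the lowest of the 7 at 0.310 ± 0.0785 CPM per kb. *Tnni3*, cardiac TnI, was below the filter, with 2 to 23 counts per library (0.119 to 0.696 CPM). The 7 genes together took 2.15 to 3.92% of all counts.

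The order of these levels was firm in some places and not in others. *Tnnt3* was above *Tnni2* per kilobase in 13 of 16 mice, and their ranges overlapped, so this pair did not separate beyond its spread. *Tnni2* was 10.3 to 26.9 times *Tnnc2* per kilobase in every mouse. With *Tnnc2* divided by its 208 unshared exon bases, a length chosen after its values were seen, its level was 1876 CPM per kb, still below the other fast genes and above every slow gene. *Tnnc2* was at least 50.1 times *Tnnc1* in every mouse. *Tnnc1* was above *Tnnt1* in 12 of 16 mice, with overlapping ranges. *Tnnt1* was above *Tnni1* in 16 of 16 mice, by a median of 2.02 times, although the ranges of these genes over the mice overlapped. *Tnnt2* was below *Tnni1* in 16 of 16 mice without overlap of the ranges.

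**Figure D1:**
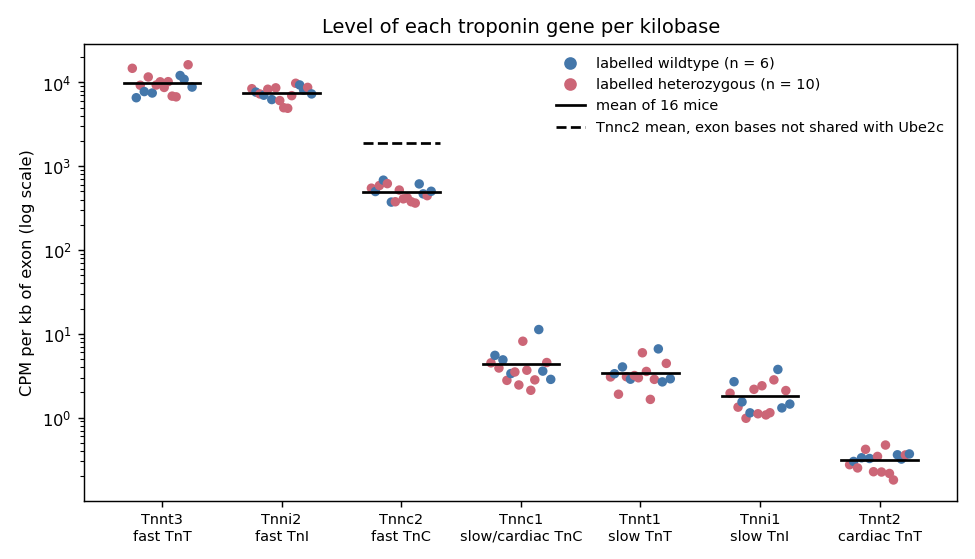
Level of each troponin gene in CPM per kb of exon (log axis), 1 point per mouse, coloured by label, with the mean of 16 mice as a line. The fast genes lie at 488 CPM per kb and above on average and the others at 4.36 CPM per kb and below, and the dashed line gives *Tnnc2* per kilobase of exon not shared with *Ube2c*.

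The slow isoform was a small part of every subunit. As a share of slow plus fast mRNA per kilobase, slow TnT (*Tnnt1*) was 0.0362 ± 0.0138% (SD, n = 16), from 0.0205 to 0.0679%. Slow TnI (*Tnni1*) was 0.0241 ± 0.00956%, from 0.0118 to 0.0479%. Slow TnC (*Tnnc1*) was 0.893 ± 0.426%, from 0.446 to 1.96%, a share that rests on the uncertain level of *Tnnc2*. The highest share of all 3 subunits was that of heterozygous replicate 6, and the next highest that of wildtype replicate 4 (0.0545% for TnT, 0.0401% for TnI and 1.79% for TnC). The 4 markers of type I fibres differed in level. *Myh7*, the slow myosin heavy chain, had a median of 0.404 CPM (0 to 28.6, the highest in heterozygous replicate 6), the slow light chains *Myl2* and *Myl3* medians of 7.62 CPM (3.09 to 32.5) and 110 CPM (74.9 to 212), and *Atp2a2*, the slow calcium pump, 19.9 CPM (10.8 to 70.0). In whole tissue, fewer slow fibres and less slow troponin mRNA per fibre cannot be told apart.

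Counts limited how precisely the low genes were measured. *Tnnt2* had 28 to 162 counts per library, *Tnnc1* 37 to 181, *Tnni1* 69 to 295 and *Tnnt1* 61 to 400, so that counting error alone was 14.5% for *Tnnt2* at its median count. *Tnnc2* had 5066 to 25302 counts, *Tnni2* 159601 to 554103 and *Tnnt3* 182753 to 981358. Beyond counting error, edgeR's biological coefficient of variation was 0.403 for *Tnnc1*, 0.374 for *Tnni1* and 0.331 for *Tnnt1*, above the median of 0.242 over all genes tested. The fast genes were near that median, at 0.246 for *Tnnt3*, 0.232 for *Tnni2* and 0.219 for *Tnnc2*, and *Tnnt2* was at 0.216.

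No troponin gene passed the test between the labels. The fit of 14331 genes, with cage and body weight as covariates, called 0 genes at an adjusted p under 0.05 (0% of those tested). In it, 151 genes were at an unadjusted p under 0.05. DESeq2 called 6 genes. Without wildtype replicate 3, the fit called 3 genes, none of them a troponin gene, with 160 at an unadjusted p under 0.05. The count of 151 was 544 with the label alone and 581 with cage as the only covariate, and ran from 127 to 285 (without heterozygous replicate 7) when 1 mouse was left out. The log2 fold change of heterozygous minus wildtype was below 0 for 7 of 7 troponin genes, where 51.6% of all genes tested were below 0. The median over the troponin genes was -0.31, beside -0.0060 over all genes tested. None of the 7 reached an unadjusted p under 0.05, a mark that 0.509% of all genes passed on the lower side. In 5 of 29 alternatives 1 of the 7 did, namely *Tnnt2* by limma-voom (unadjusted p = 0.0423) and without heterozygous replicate 10 (unadjusted p = 0.0216), *Tnnc2* without heterozygous replicate 2 (unadjusted p = 0.0280), and *Tnnc1* without heterozygous replicate 6 (unadjusted p = 0.00595) or without replicates 6 and 7 (unadjusted p = 0.00635). For each of the 7, the p adjusted over all genes (edgeR's quasi-likelihood test, Benjamini-Hochberg) was 0.999994.

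The direction of this count rested on a single mouse. Without wildtype replicate 4, 2 of 7 genes were lower under the heterozygous label, *Tnnt2* at -0.58 and *Tnnc2* at -0.24. The other 5 had log2 fold changes of 0.21 for *Tnnt1*, 0.11 for *Tnnt3*, 0.61 for *Tnni1*, 0.0035 for *Tnni2* and 0.20 for *Tnnc1*, none of them called. Wildtype replicate 4 held the highest *Tnnt1* (14.5 CPM), *Tnni1* (13.5 CPM) and *Tnnc1* (11.7 CPM) of all 16 mice. It was the lightest of the wildtype mice at 40.5 g, had the smallest total (15273472 counts) and was the only wildtype mouse of cage 678. Its sum of adipocyte markers, 923 CPM, was the highest of the wildtype group (454 to 923 CPM; 296 to 1159 CPM in the libraries labelled heterozygous), and the part of these properties in the result was not tested. Without wildtype replicate 3, the 7 log2 fold changes ran from -0.65 (*Tnnc1*) to -0.056 (*Tnnt3*), all 7 below 0 and none called.

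**Figure D2:**
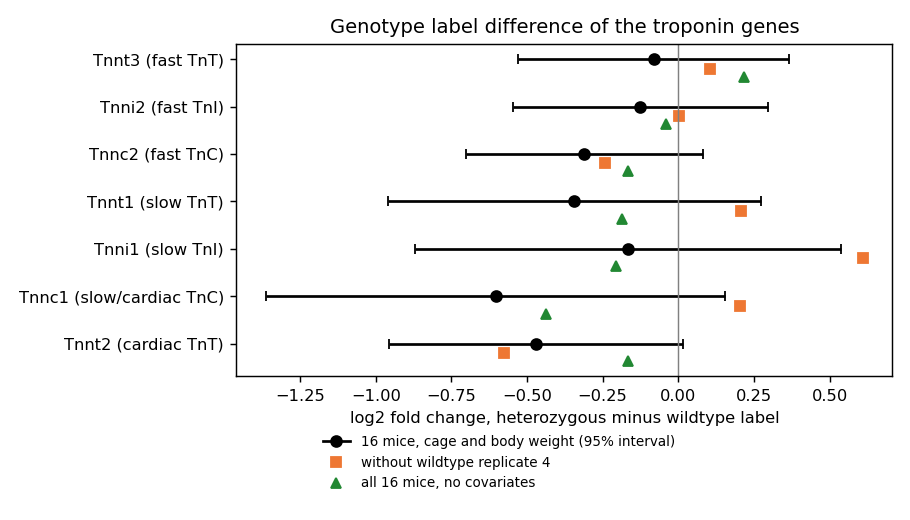
Log2 fold change of each troponin gene, heterozygous minus wildtype label (x axis), in the fit of 16 mice with cage and body weight (black, with the 95% interval), without wildtype replicate 4 (squares) and with the label alone (triangles). Every black interval reaches 0, and 5 of the 7 squares lie above 0, where 0.61 for *Tnni1* is the farthest.

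*Tnnt1*, slow TnT, ran from 3.63 to 13.1 CPM with a median of 6.75 in the 10 libraries labelled heterozygous and from 5.87 to 14.5 CPM with a median of 6.87 in the 6 labelled wildtype. The groups overlapped almost completely, with a lone high mouse in each (heterozygous replicate 6 and wildtype replicate 4). The log2 fold change was -0.34 (standard error 0.29, unadjusted p = 0.254).

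*Tnni1*, slow TnI, ran from 3.53 to 10.1 CPM (median 5.90) under the heterozygous label and from 4.10 to 13.5 CPM (median 5.37) under the wildtype label. The medians and the fitted change of -0.17 (standard error 0.33, unadjusted p = 0.626) thus had opposite order, and the groups overlapped. The mice were spread over this range in both groups.

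*Tnnc1*, the TnC of slow muscle and heart, ran from 2.20 to 8.48 CPM (median 3.73) under the heterozygous label and from 2.97 to 11.7 CPM (median 4.41) under the wildtype label. Its log2 fold change was -0.60, farther from 0 than that of the other 6 genes, with a standard error of 0.36 and an unadjusted p of 0.111. The groups overlapped, and the value moved with single mice, to -0.96 without heterozygous replicate 6 (unadjusted p = 0.00595) and to 0.20 without wildtype replicate 4.

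*Tnnt2*, cardiac TnT, ran from 1.39 to 3.64 CPM (median 2.03) under the heterozygous label and from 2.32 to 2.85 CPM (median 2.54) under the wildtype label. All 6 wildtype values lay inside the range of the other group, in which 6 of 10 mice were below the lowest wildtype mouse. The log2 fold change was -0.47 (standard error 0.23, 95% interval -0.96 to 0.015, unadjusted p = 0.0567), from -0.58 to -0.38 in the fits that left out 1 mouse. It was nearer 0 without body weight in the fit, at -0.17 with the label alone (unadjusted p = 0.411) and -0.12 with cage as the only covariate (unadjusted p = 0.590).

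*Tnnt3*, fast TnT, ran from 10663 to 25774 CPM (median 15438) under the heterozygous label and from 10411 to 19166 CPM (median 13138) under the wildtype label. The groups overlapped, and the highest values were those of heterozygous replicates 10 (25774 CPM) and 1 (23369 CPM), both of cage 676. Its fitted log2 fold change of -0.08 (standard error 0.21, unadjusted p = 0.706) had the opposite sign to the difference of the means, 16464 ± 4904 CPM (SD, n = 10) against 14162 ± 3392 CPM (SD, n = 6), and it was 0.22 with the label alone.

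*Tnni2*, fast TnI, ran from 7367 to 14648 CPM (median 11680) under the heterozygous label and from 9364 to 13984 CPM (median 11210) under the wildtype label. Heterozygous replicates 7 (7367 CPM), 6 (7477 CPM) and 5 (9107 CPM) were the lowest of all 16, and the rest of the groups overlapped. The log2 fold change was -0.13 (standard error 0.20, unadjusted p = 0.538).

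*Tnnc2*, fast TnC, ran from 291 to 496 CPM (median 346) under the heterozygous label and from 299 to 546 CPM (median 401) under the wildtype label. The groups overlapped over most of their range. The log2 fold change was -0.31 (standard error 0.18, 95% interval -0.70 to 0.080, unadjusted p = 0.111), from -0.41 to -0.22 in the fits that left out 1 mouse. It too was nearer 0 without body weight, at -0.17 with the label alone (unadjusted p = 0.284) and -0.14 with cage as the only covariate (unadjusted p = 0.435).

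Without wildtype replicate 3, the wildtype medians of the 7 genes, now over 5 mice, were 7.35 CPM for *Tnnt1*, 5.53 for *Tnni1*, 5.08 for *Tnnc1*, 2.57 for *Tnnt2*, 13947 for *Tnnt3*, 11490 for *Tnni2* and 402 for *Tnnc2*. The lowest wildtype value was then 4.69 CPM for *Tnni1*, 10548 for *Tnni2* and 374 for *Tnnc2* and unchanged for the other 4 genes. The groups still overlapped for every gene.

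**Figure D3:**
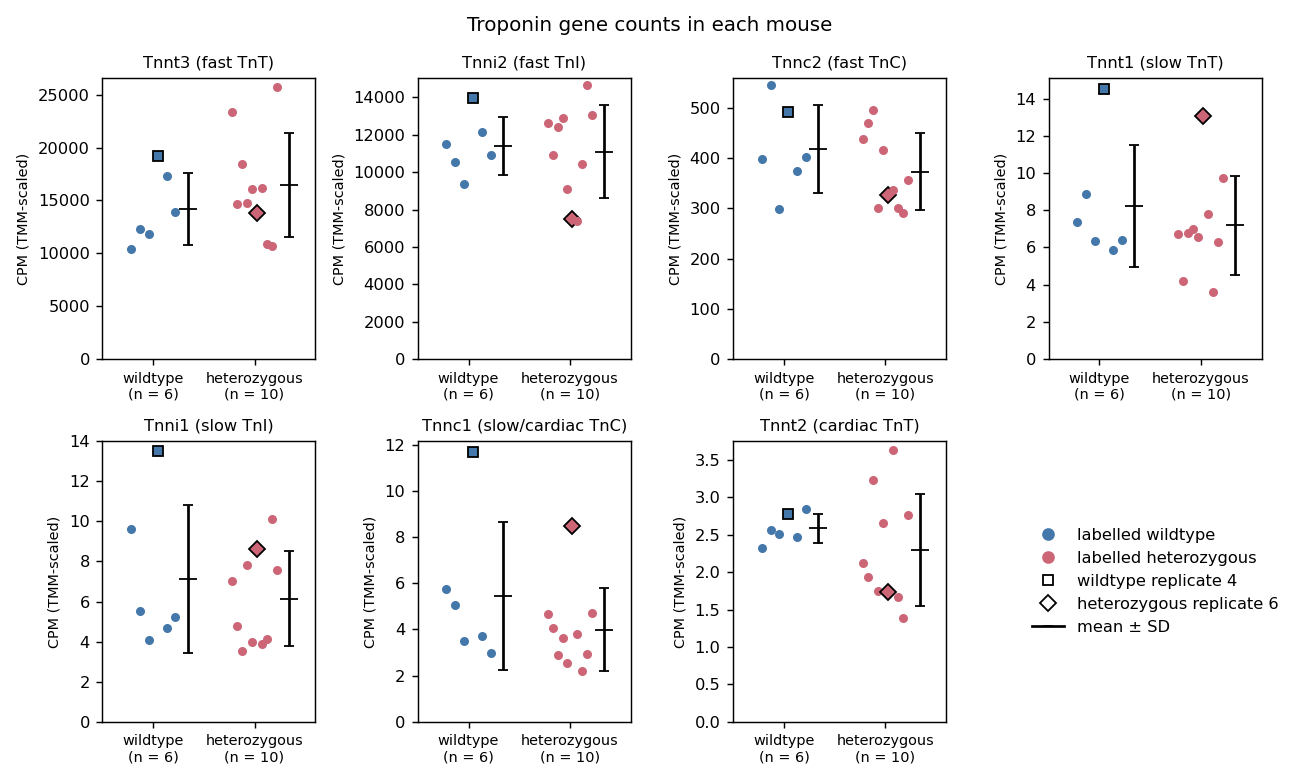
Level of each troponin gene in CPM (y axis, from 0), 1 point per mouse by label, with the mean and SD beside each group. The groups overlap for every gene, and wildtype replicate 4 (square) and heterozygous replicate 6 (diamond) are the highest pair for *Tnnt1* (14.5 and 13.1 CPM) and *Tnnc1* (11.7 and 8.48 CPM).

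Within cages, cage 678 alone had a lower mean under the heterozygous label for all 7 genes. There, the mean of the 4 mice labelled heterozygous was below wildtype replicate 4 by -1.68 log2 units for *Tnnc1* to -0.33 for *Tnni2*. Each of the 4 mice was below it for 5 of the genes, and 3 of 4 mice for *Tnnt2* and *Tnni2*. In cage 675, with 2 mice of each label, 3 of 7 genes were lower, and *Tnnc1* (0.23) and *Tnnt1* (0.33) were higher. Without wildtype replicate 3, which is of this cage, these differences were -0.033 and 0.087, that of *Tnni1* went from 0.21 to -0.0025 and that of *Tnnc2* from -0.0043 to -0.44, so that 5 of 7 genes were lower. In cage 676, with 3 heterozygous mice and 1 wildtype mouse, 4 of 7 genes were lower, none by more than the -0.20 of *Tnnt2*. In cage 677, with 1 heterozygous mouse and 2 wildtype mice, 4 of 7 were lower, *Tnni1* by -0.82 and *Tnnc1* by -0.68, while *Tnnt3* was higher by 0.42. These differences of mean log2 CPM rest on 1 to 4 mice a side and were not tested.

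Body weight and cage gave no called troponin gene. The mice weighed 43.6 ± 3.79 g (SD, n = 10) under the heterozygous label and 47.4 ± 4.69 g (SD, n = 6) under the wildtype label. The slope on body weight was called for 0 of 14331 genes (0%), with 2449 genes (17.1%) at an unadjusted p under 0.05, and 0 of the 7 troponin genes were called. *Tnnt2* had the lowest unadjusted p of the 7, with a slope of -0.079 log2 units per g (standard error 0.028, unadjusted p = 0.0130, adjusted p = 0.245). The slopes of *Tnnt3* (-0.058, unadjusted p = 0.0510), *Tnnc2* (-0.046, unadjusted p = 0.0776) and *Tnnt1* (-0.045, unadjusted p = 0.284) were also below 0. Those of *Tnnc1* (-0.026), *Tnni1* (0.041) and *Tnni2* (0.0031) were within 1 standard error of 0. With wildtype replicate 3 left out, the slope of *Tnnt2* was -0.093 (unadjusted p = 0.00901, adjusted p = 0.226), that of *Tnnt3* -0.060 (unadjusted p = 0.0767), that of *Tnnc2* -0.025 (unadjusted p = 0.346), that of *Tnnt1* -0.022 (unadjusted p = 0.635), that of *Tnni1* 0.084 (unadjusted p = 0.109), that of *Tnni2* 0.019 and that of *Tnnc1* 0.012, and 0 genes were called. The slope of *Tnni1* was 0.112 without wildtype replicate 4 (unadjusted p = 0.0282). Over the 27 alternatives, an unadjusted p under 0.05 was reached by *Tnnt2* in 24, *Tnnt3* in 8, *Tnnc2* in 5 (smallest 0.00772, with the replicate block) and *Tnni1* in 1, and by none of the other 3 genes. Differences between the cages were called for 4 genes (0.0279%) and passed an unadjusted p under 0.05 for 1055 genes (7.36%), with no troponin gene among either. The lowest cage p of the 7 was that of *Tnnt3* (unadjusted p = 0.0709, adjusted p = 0.656 by edgeR's quasi-likelihood test, and 0.0946 and 0.756 without wildtype replicate 3). In 4 cases an alternative gave a troponin gene an unadjusted cage p under 0.05, for *Tnnt3* without heterozygous replicate 8 (unadjusted p = 0.00734) and by DESeq2 (unadjusted p = 0.0404), for *Tnni2* without heterozygous replicate 3 (unadjusted p = 0.0410) and for *Tnni1* without heterozygous replicates 6 and 7 (unadjusted p = 0.0327). The call of 0 genes for body weight depended on heterozygous replicate 3, without which 3158 genes were called for body weight and 869 for cage, none of them a troponin gene (smallest adjusted p of the 7 for body weight 0.120, for *Tnnt2*).

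*Tnnc1* varied with both other slow genes over the 16 mice, by Pearson's r. Over 16 mice, *Tnnt1* and *Tnnc1* had a Pearson's r of 0.817 (permutation p = 0.00022, adjusted p = 0.0108 over 49 pairs) and a Spearman's rho of 0.718 (permutation p = 0.00254, adjusted p = 0.125). *Tnni1* and *Tnnc1* had an r of 0.707 (permutation p = 0.00172, adjusted p = 0.0281) and a rho of 0.612 (permutation p = 0.0138, adjusted p = 0.337). *Tnnt1* and *Tnni1* had an r of 0.600 (permutation p = 0.0132, adjusted p = 0.0923) and a rho of 0.409 (permutation p = 0.117, adjusted p = 0.479). Of the 21 pairs of troponin genes, the first 2 of these passed the adjusted threshold and no other did. With values centred within cage, all 3 passed, at r of 0.819, 0.755 and 0.697. That permutation ran over all 16 mice without regard to the cage means removed, so its p-values may be too small. Without wildtype replicate 3, r was 0.815, 0.708 and 0.598, and the first 2 passed.

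These relations rested in part on the same pair of mice. Without wildtype replicate 4 and heterozygous replicate 6, chosen after their values were seen, r was 0.566 for *Tnnt1* with *Tnnc1*, 0.491 for *Tnni1* with *Tnnc1* and 0.325 for *Tnnt1* with *Tnni1*, and 0 of 49 pairs passed (adjusted p from 0.213 to 0.533 for the slow pairs). The largest r of a troponin pair in those 14 mice was that of *Tnni1* with *Tnni2*, slow with fast TnI, at 0.665 (adjusted p = 0.213), and that of *Tnnt1* with *Tnnt2* was 0.511. Without the 2 mice farthest from the median of *Tnni1*, r of *Tnni1* with *Tnnc1* was 0.755. By Spearman's rho, 0 of 49 pairs passed after adjustment in all 16 mice. In all 16 mice, *Tnnt2* had an r of 0.282 with *Tnnt1*, 0.07 with *Tnnc1* and -0.39 with *Tnni1* (-0.53 without that pair of mice), none past the adjusted threshold. *Tnni2* and *Tnnt3*, from the same stretch of chromosome 7, had an r of 0.23.

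**Figure D4:**
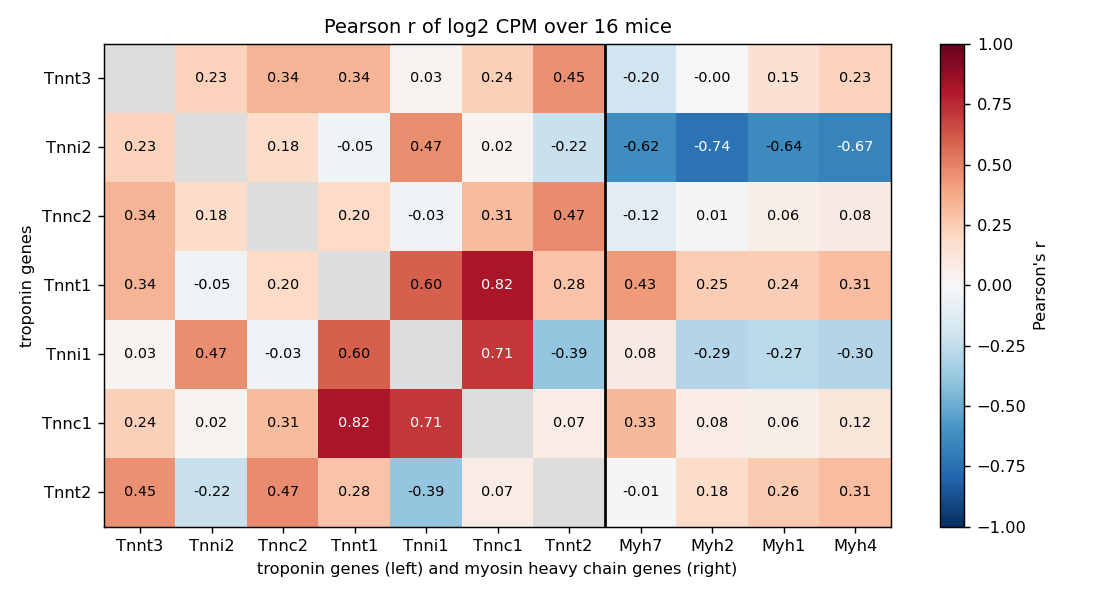
Pearson's r of log2 CPM over 16 mice for each pair of troponin genes (left of the line) and each troponin gene with a myosin heavy chain gene (right of the line), on a scale from -1 to 1. The pairs among *Tnnt1*, *Tnni1* and *Tnnc1* have r from 0.60 to 0.82, falling to 0.325 to 0.566 without wildtype replicate 4 and heterozygous replicate 6, and *Tnni2* has r from -0.74 to -0.62 with the 4 myosins.

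*Tnni2* was the troponin gene with a called relation to a myosin heavy chain, *Myh2*, 1 of the 4 examined. Its r was -0.737 with *Myh2*, the type IIa myosin (permutation p = 0.00157, adjusted p = 0.0281, rho = -0.503, adjusted p of rho 0.419), and -0.671 with *Myh4* (permutation p = 0.00462, adjusted p = 0.0566, rho = -0.465). With *Myh1* r was -0.637 (permutation p = 0.0080, adjusted p = 0.0782, rho = -0.350) and with *Myh7* -0.622 (permutation p = 0.00958, adjusted p = 0.0782, rho = -0.465), and none of the 4 passed by rho. The relation with *Myh2* rested on heterozygous replicates 6 and 7, without which r was -0.343, and with *Myh4* it was then -0.198. When wildtype replicate 3 was left out, it was -0.789 with *Myh2*, -0.720 with *Myh4* (adjusted p = 0.0405) and -0.694 with *Myh1* (adjusted p = 0.0462), and the latter 2 then passed as well. The other fast genes had r from -0.20 to 0.23 with the 4 myosins.

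*Tnni2* also moved with a contrast between long and short genes. For each library, the median log2 deviation of genes over 5 kb of exon minus that of genes under 1.5 kb ran from -0.94 in heterozygous replicate 9 to 1.09 in heterozygous replicate 7, with heterozygous replicates 6 (0.84) and 5 (0.67) next. This contrast was added after the data were seen. *Tnni2*, with 1497 exon bases itself a short gene, had an r of -0.907 with it (permutation p = 1e-05, the smallest that the 100000 resamples give, adjusted p = 7e-05 over 7 genes, rho = -0.829, adjusted p of rho 0.00119), -0.847 without the 2 farthest mice, -0.720 without heterozygous replicates 5, 6 and 7 and -0.918 without wildtype replicate 3. *Tnni1*, with 3600 exon bases, had an r of -0.535 (permutation p = 0.0321, adjusted p = 0.112) and a rho of -0.659 (adjusted p = 0.0238), and an r of -0.540 without wildtype replicate 3. The other 5 genes had a pooled r from -0.0033 to 0.387, *Tnnc1* (1041 bases) and *Tnnc2* (800 bases), which are also under 1.5 kb, among them. Within the labels these values moved, since in the 6 wildtype libraries r was -0.70 for *Tnnc1*, -0.51 for *Tnnt1* and -0.39 for *Tnnc2*, beside -0.67 for *Tnni2* and -0.90 for *Tnni1*, and in the 10 libraries labelled heterozygous it was 0.23, 0.25 and 0.17, beside -0.95 and -0.54. Without heterozygous replicates 5, 6 and 7, r was -0.32 for *Tnnt1* and -0.76 for *Tnni1*. *Tnni2* belongs to the short class that the contrast is made from, so its r and p are not independent of the contrast. The share of all short genes with a like r was not examined. Whether *Tnni2* differed from the other genes in this relation was not tested. *Myh4* had an r of 0.824 with the same contrast, and the part of the contrast in the relation of *Tnni2* with the myosins was not tested.

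**Figure D5:**
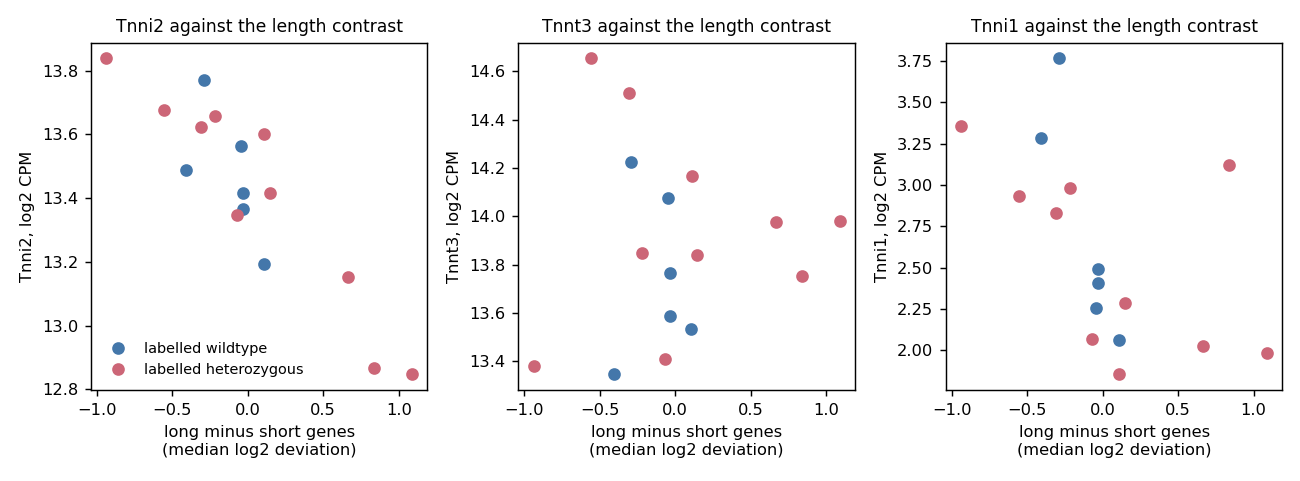
Log2 CPM of *Tnni2*, *Tnnt3* and *Tnni1* (y axes) against the log2 contrast of long minus short genes (x axes), 1 point per mouse by label. Over all 16 mice r is -0.907 for *Tnni2*, 0.021 for *Tnnt3*, whose 1583 exon bases put it outside the short class, and -0.535 for *Tnni1*.

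Other genes of the thin filament and of fibre types were set beside the troponin genes. Of the thin filament partners (actins, tropomyosins, nebulin and their relatives), 11 of 12 were tested, 8 were below 0 (51.6% of all genes were) and 0 reached an unadjusted p under 0.05, with a median of -0.11. With the label alone the median was 0.037 and the count at an unadjusted p under 0.05 was 1, as it was with the replicate block and without heterozygous replicate 7, heterozygous replicate 8 or wildtype replicate 5. Cardiac actin *Actc1* had the smallest unadjusted p (-0.51, unadjusted p = 0.0742), followed by the tropomyosin gene *Tpm2* (-0.23, unadjusted p = 0.238) and *Acta1* (-0.22, unadjusted p = 0.320). Of the 14 slow fibre genes, all tested, 10 were below 0 with a median of -0.086, which turned to 0.070 without wildtype replicate 4 and was -0.23 with the replicate block. Of these, 3 were lower at an unadjusted p under 0.05 (0.509% of all genes were), none at an adjusted p under 0.05. They were *Csrp3*, a protein of the Z-disc (-0.87, unadjusted p = 0.000285), *Casq2*, a calcium store of the sarcoplasmic reticulum (-0.95, unadjusted p = 0.00144), and *Ankrd2*, an ankyrin repeat protein of slow fibres (-0.47, unadjusted p = 0.00707). *Myh7*, also of the slow list, was above 0 at 1.15 (standard error 1.14, unadjusted p = 0.334 by edgeR's quasi-likelihood test). Of the 14 fast fibre genes, 11 were below 0. The 3 above 0 were the myosins *Myh2* (0.30), *Myh1* (0.30) and *Myh4* (0.17). In this list 0 genes were at an unadjusted p under 0.05, and the median was -0.054. With the label alone the median was 0.059 and 3 genes were at an unadjusted p under 0.05, with the replicate block these were 0.12 and 2 genes, with cage as the only covariate 0.026 and 1 gene, and without wildtype replicate 5 the count was 1. Leaving out wildtype replicate 3, the 3 medians were -0.097, -0.072 and -0.035. In the fits that left out 1 mouse, they ran from -0.13 to -0.024 for the partners, -0.24 to 0.070 for the slow list and -0.16 to -0.0097 for the fast list.

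Lists for other cell types and states were measured in the same fit, and none had a gene at an unadjusted p under 0.05. Of the developmental and regeneration genes, 3 of 9 tested were below 0 (median 0.034). The cardiac markers had 2 of 8 tested, both above 0, *Myh6* (0.57) and *Gja5* (0.08). Below 0 were 3 of 6 smooth muscle markers, 6 of 6 adipocyte markers (median -0.29), 1 of 6 endothelial markers, 4 of 6 macrophage markers and 1 of 6 tendon and matrix markers. The adipocyte list thus shared the sign of the troponin genes, with summed levels that overlapped between the labels, and its part in their values was not tested.

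Genes whose level was most like that of a TnT gene over the 16 mice were sought among 9382 genes with a mean of 5 CPM or more. For *Tnnt3* these were *Psmd7*, a proteasome subunit (r = 0.948, rho = 0.962), *Brap* (r = 0.947, rho = 0.968) and *Slc25a51*, a mitochondrial carrier (r = 0.944, rho = 0.938). For *Tnnt1* they were *Bscl2*, which encodes seipin (r = 0.827, rho = 0.785), *Tpra1* (r = 0.789, rho = 0.703) and *Trmu* (r = 0.749, rho = 0.574), and for *Tnnt2* they were *Ofd1* (r = 0.870, rho = 0.806), *Nob1* (r = 0.794, rho = 0.824) and *Atp6v1c1* (r = 0.791, rho = 0.668). The mice share cages, labels and library preparation. Each r was picked as among the highest of 9382 and was not tested. These r describe the 16 libraries, wildtype replicate 3 included.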

How the data were processed

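Skeletal muscle mRNA of 16 mice was sequenced as paired reads of 52 bases. The authors aligned these to GRCm38 by STAR (2.7.2b per the submitters' processing notes), counted fragments per GENCODE M24 gene with featureCounts (1.6.4 per the same notes) and deposited raw counts with a gene length. The paper and the labels name different library kits. No strand setting was given in the sources used here. The depth was 15273472 to 59682677 counts per library, and precision is stated as counting error only.

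Groups, cages and body weights were taken from the labels. Symbols were paired with 55144 of the 55471 rows, and exon overlaps were taken from the GENCODE M21 annotation of the same build. Counts were filtered with filterByExpr, scaled with TMM and fitted with edgeR 4.0.16 (glmQLFit, robust = TRUE, legacy = TRUE, R 4.3.3) on genotype label, cage and body weight, and p-values were adjusted over 14331 genes by Benjamini-Hochberg. Standard errors were derived from the F statistic. Levels are CPM, per kilobase where genes are compared. Log2 CPM used a prior count of 2, and correlations a two-sided permutation test with 100000 resamples. DESeq2 1.42.0, limma-voom (limma 3.58.1), other covariates, scalings and filters, the replicate number as a block, and leaving out each mouse were alternatives. On simulated data, 189 of 194 genes changed by 2 log2 units were called for the genotype label, with 5 unchanged genes. The simulation held no cage or body weight effect. Changes as small as those of the troponin genes (-0.60 at the farthest, for *Tnnc1*) were not simulated.

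The members and the gene lists were chosen with earlier results of these data known. The genes named were the 7 troponin genes, *Tnni3*, *Npr1*, 4 myosins, and markers of skeletal muscle, type I fibres and heart. Also named were the 3 genes of a list with the smallest p for the label and the 3 genes most like each TnT gene. Genes that neighbour or overlap a troponin gene were named for their position. Others are said to be picked later. P-values measure the spread between these mice, and a replicate number shared between the labels does not mark the same animal.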

Additional observations from a re-analysis of the deposited data

Results flagged for a closer look

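In 36 groups of 6 or 10 mice examined for a sample far from the others, 6 were marked, where chance marks about 1 in 20. Heterozygous replicate 6 stood above the other mice of its label on the slow share of all 3 troponin subunits. Its slow TnT share was 0.0679% (next highest 0.0424%), its slow TnI share 0.0479% (next 0.0288%) and its slow TnC share 1.96% (next 1.01%). These 3 shares come from the same library and are not independent of each other. Its *Myh7* (28.6 CPM) and its *Myh2* (1139 CPM) were both the highest of all 16 libraries. Its sum over the slow fibre genes, 4589 CPM, was below the median of 8260 CPM over all 16. Its slow TnI share also rested on a low *Tnni2* of 7477 CPM, where the lowest of its label was 7367 CPM. Whether this tissue piece held more slow fibres was not tested.

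Among the wildtype mice, replicate 4 had the highest *Myh7*, at 1.41 log2 CPM where the next was -0.89. Wildtype replicate 1 had the lowest *Myh1*, at 9.49 log2 CPM (next 10.4), and the lowest *Myh4*, at 12.3 log2 CPM (next 13.3). No troponin gene's own level was marked in either label.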

How the results depend on the processing

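No troponin gene was called for label, body weight or cage under any alternative run (smallest adjusted p 0.571, 0.120 and 0.158). The label difference of *Tnnt3* turned to 0.22 with the label alone, 0.13 with cage as the only covariate, 0.17 with body weight as the only covariate and 0.11 with the replicate block. Over the fits that left out 1 mouse, the number of troponin genes lower ran from 2 to 7, with label differences of -0.17 to 0.11 for *Tnnt3*, -0.56 to 0.21 for *Tnnt1*, -0.41 to 0.61 for *Tnni1*, -0.17 to 0.0035 for *Tnni2* and -0.96 to 0.20 for *Tnnc1*, each highest value without wildtype replicate 4. Body weight slopes turned for *Tnni1* with body weight alone (-0.0097), for *Tnni2* (-0.028) and *Tnnc1* (0.0014) with the replicate block, and for *Tnni2* without heterozygous replicates 6 and 7 together (-0.013). With 1 mouse left out, the slopes ran from -0.021 to 0.044 for *Tnni2*, -0.069 to 0.045 for *Tnnc1*, -0.081 to 0.0028 for *Tnnt1*, 0.012 to 0.112 for *Tnni1* and -0.061 to -0.025 for *Tnnc2*. Replicate numbers gave no clear pairing of the mice. The mean correlation of deviations was 0.113 over 6 same-numbered pairs (0.0411 to 0.226). Over 54 different-numbered pairs it was -0.0123 (-0.491 to 0.611).

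Over all genes, those at an unadjusted p under 0.05 for the label were 1294 with the replicate block, 829 without a filter and 97 with at least 10 counts in every library. Calls for the label were 2 with the replicate block, 8 without a filter, 6 by DESeq2, 2 without heterozygous replicates 6 and 7, and 0 to 3 when 1 mouse was left out. Those for body weight were 1 with the block and 0 to 3158 with a mouse left out. Those for cage were 0 by library size, 23 without a filter, 1 with at least 10 counts in every library, 86 by DESeq2, 1 by limma-voom and 0 to 869 with a mouse left out. Of 49 correlations, 6 passed by library size, 5 without wildtype replicate 3 and 7 centred within cage, where the permutation ignored the cage means removed. The number was 0 without heterozygous replicates 6 and 7 or without wildtype replicate 4 and heterozygous replicate 6. The causes were not tested. Counts of at most 162 (*Tnnt2*) and 181 (*Tnnc1*) per library limit what these genes can show.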
